A study of Mus musculus with 4 samples.

Results

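The genes described here are 10 genes of the perineuronal net and the lectican matrix, chosen by gene symbol from the 31053 genes of the deposited count matrix, in which all 10 were found. They are the lecticans Acan (aggrecan), Bcan (brevican), Ncan (neurocan) and Vcan (versican), the link proteins Hapln1 and Hapln4, the tenascins Tnr and Tnc, and the hyaluronan synthases Has2 and Has3. Their levels were measured by single-nucleus RNA sequencing of the superior colliculus (the roof of the midbrain, where retinal and other sensory signals meet), in a study of neuron types and of candidate genes for how circuits form. The groups were 4 stages of C57BL/6J mice, an inbred strain: E19, in the embryo on day 19, and P4, P8 and P21, which are 4, 8 and 21 days after birth. No treatment or engineered allele was named for any group. Each stage was 1 library made from nuclei of pooled animals, so no difference between stages has a replicate check and none was tested.

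Perineuronal nets are lattices of extracellular matrix that form around the cell body and proximal dendrites of certain mature neurons. Hyaluronan chains made by synthases at the cell surface bind the globular end of the lecticans, which are chondroitin sulfate proteoglycans, and a link protein stabilises that bond. Tenascin-R crosslinks the other end of the lecticans, while versican, neurocan and tenascin-C are best known from the looser matrix of the immature brain.

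The deposited annotation placed 9724 nuclei in 9 classes and 35 subtypes, with 2249 to 2585 nuclei per library. The median depth per nucleus was lowest in the E19 library, at 6828 unique molecular identifiers (UMIs), and highest in the P21 library, at 11745. The libraries shared 9 cell barcodes, which belonged to 18 nuclei. Nuclei with a UMI of Xist, the transcript of the inactive X chromosome, were 0.967% of the E19 library and 40.7% to 68.1% of the others, and what the sexes of the pooled animals contribute to the results was not tested. Levels are given as counts per 1000000 UMIs (CPM) of all nuclei of a class in 1 library, with 95% exact Poisson intervals that cover counting error only. Classes held their defining markers, except that the nuclei labelled epithelial had 0 to 14.4 CPM of 4 epithelial markers together and 648 to 1132 CPM of 5 vascular leptomeningeal markers, so that this label was not backed by those markers.

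Promoter sequence of 7 of the 10 genes (Acan, Bcan, Ncan, Vcan, Hapln1, Tnr and Tnc) was found in RefSeq annotation of GRCm38.p6, as 300 bases from 250 before the start of transcription. The 4 printed here belong to a pair that fell in astrocytes, Tnc and Ncan, and to a pair whose highest neuron level was at P21, Acan and Hapln1. Capitals mark the half-site of the nuclear factor I family, TTGGC or its reverse complement GCCAA, as transcription factors of this family act in astrocyte maturation.
Tnc, chr4:64046887-64047186, minus strand: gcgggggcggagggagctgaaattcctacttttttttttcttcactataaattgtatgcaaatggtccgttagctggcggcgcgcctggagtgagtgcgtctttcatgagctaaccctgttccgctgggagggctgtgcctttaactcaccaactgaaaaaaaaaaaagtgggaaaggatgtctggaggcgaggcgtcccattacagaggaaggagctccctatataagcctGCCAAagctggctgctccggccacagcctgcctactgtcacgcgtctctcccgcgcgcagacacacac
Ncan, chr8:70120795-70121094, minus strand: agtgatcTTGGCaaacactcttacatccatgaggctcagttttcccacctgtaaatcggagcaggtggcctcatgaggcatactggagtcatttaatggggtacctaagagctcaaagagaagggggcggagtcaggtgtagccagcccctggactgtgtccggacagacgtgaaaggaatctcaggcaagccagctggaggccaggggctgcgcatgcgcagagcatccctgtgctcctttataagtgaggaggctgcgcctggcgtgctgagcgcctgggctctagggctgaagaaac
Acan, chr7:79052976-79053275, plus strand: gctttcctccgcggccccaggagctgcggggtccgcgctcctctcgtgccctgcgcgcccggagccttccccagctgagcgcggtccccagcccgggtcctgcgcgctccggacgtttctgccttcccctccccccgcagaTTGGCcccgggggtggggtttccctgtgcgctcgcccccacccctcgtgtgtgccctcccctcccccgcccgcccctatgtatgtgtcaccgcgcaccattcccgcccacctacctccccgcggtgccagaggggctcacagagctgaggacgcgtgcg
Hapln1, chr13:89540386-89540685, plus strand: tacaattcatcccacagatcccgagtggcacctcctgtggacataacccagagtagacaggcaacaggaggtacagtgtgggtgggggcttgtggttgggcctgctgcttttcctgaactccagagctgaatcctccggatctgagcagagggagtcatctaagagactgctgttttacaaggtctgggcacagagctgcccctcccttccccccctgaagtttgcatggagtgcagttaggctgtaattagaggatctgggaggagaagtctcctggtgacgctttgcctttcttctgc
The half-site was found once each in the Tnc, Ncan and Acan stretches and not in that of Hapln1. It was also absent from the stretches of Bcan, Vcan and Tnr, which are not printed, although Vcan fell in astrocytes too. RefSeq gives Tnc another start, whose stretch (chr4:64046966-64047265, overlapping the one printed) holds no half-site. Of 32851 promoters of the same length, 46.7% hold it. These matches describe letters in a window and not bound sites. The GC content was 54.0% for Tnc, 56.7% for Ncan, 74.0% for Acan and 54.3% for Hapln1.

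The 10 genes were spread unequally over cell classes in the P21 library. Neurons, which were 1422 of 2249 nuclei and held 25909316 of 31325079 UMIs there (82.7%), carried 89.1% of the Acan UMIs, 88.1% of the Hapln1 UMIs and 95.1% of the Hapln4 UMIs. The shares of Acan and Hapln1 were thus near that of all UMIs, and per UMI other cells were as high or higher: astrocytes had 9.84 CPM of Hapln1 (5.62 to 15.98) against 7.45 in neurons (6.44 to 8.58), and precursor cells had 30.1 CPM of Acan against 4.44 in neurons. Astrocytes, with 287 nuclei and 5.19% of all UMIs, carried 46.9% of the Bcan UMIs and 60.4% of the Tnc UMIs. The oligodendrocyte lineage, with 306 nuclei and 7.51% of all UMIs, carried 56.3% of the Vcan UMIs and 23.5% of the Tnr UMIs. At E19, when 47 nuclei belonged to that lineage, it carried 3.41% of the Vcan UMIs, and neurons carried 79.6%. The Vcan UMIs of the E19 library thus came mostly from neurons, and those of the P21 library mostly from the oligodendrocyte lineage. Per UMI, neurons were already low in Vcan at E19, at 65.5 CPM against 172 in astrocytes and 257 in precursor cells. The part of the changed numbers of nuclei per class in these shares was not tested.

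**Figure D1:**
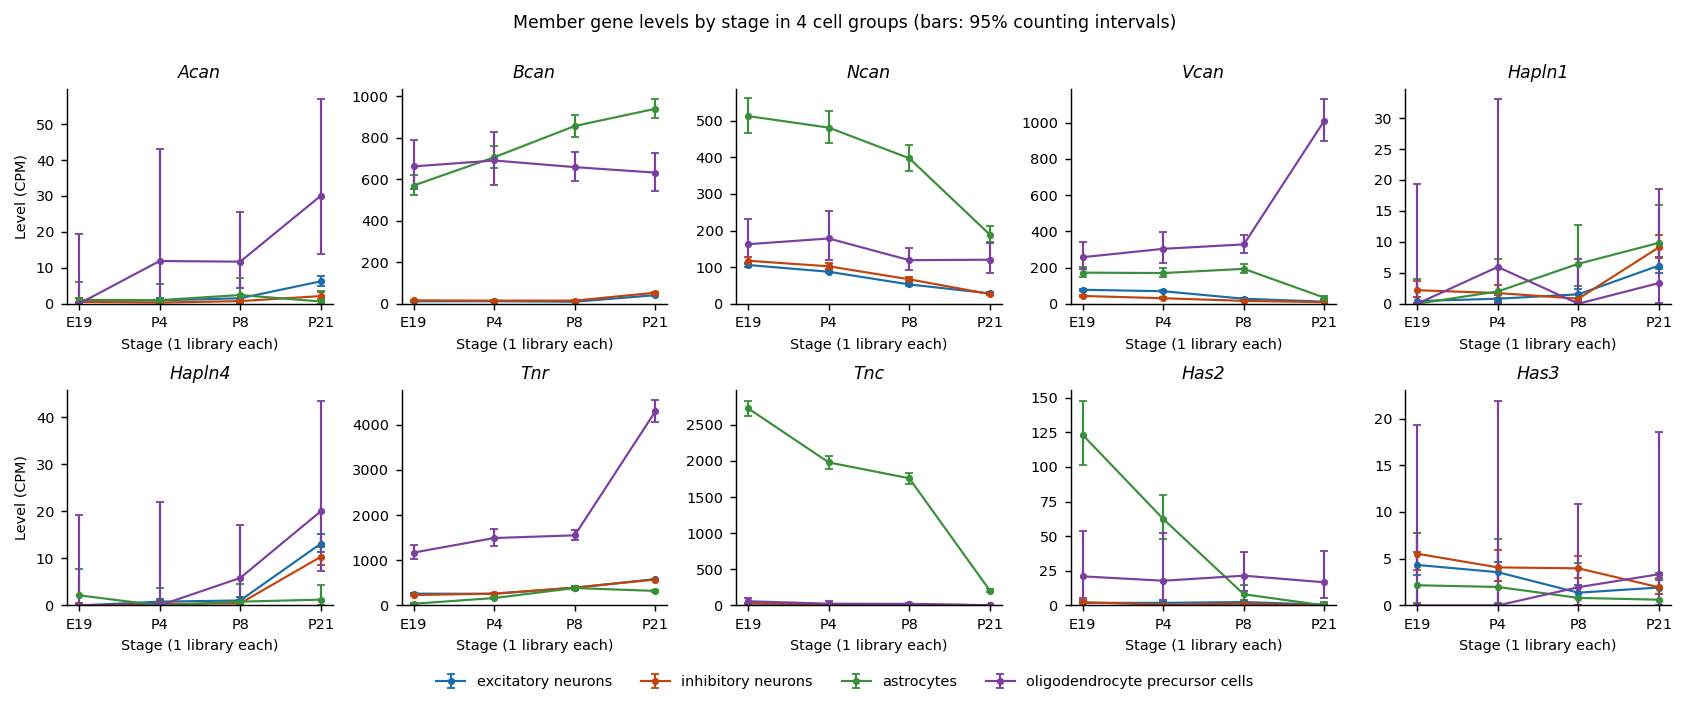
Level of each of the 10 genes (CPM, linear axes from 0) against stage in excitatory neurons, inhibitory neurons, astrocytes and oligodendrocyte precursor cells. Points are 1 library each and bars are 95% exact Poisson intervals; astrocyte Tnc drops from 2727 to 206 CPM, and precursor Tnr and Vcan are highest at P21.

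Acan encodes aggrecan, the lectican most closely tied to mature nets. From E19 to P21 its levels in excitatory neurons were 0.867, 0.940, 1.52 and 6.23 CPM, from 10, 14, 20 and 91 UMIs. The P21 level stood above the other 3 libraries, which overlapped in their intervals. It was 7.18-fold that of E19 (95% interval 3.73 to 15.5). In the same order, inhibitory neurons had 0.503, 0.313, 0.722 and 2.12 CPM, from 3, 2, 8 and 24 UMIs, and the P21 level was 4.22-fold that of E19 (1.28 to 21.9). These levels are low: 63 of 682 excitatory nuclei had an Acan UMI at P21 (9.24%), against 1 of 287 astrocyte nuclei (0.348%), at median depths of 19601 and 5525 UMIs. With each nucleus thinned to 2300 UMIs, the shares were 0.880% and 0. The thinned share of excitatory nuclei at E19 was 0.0747%.

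Hapln4 and Hapln1 encode link proteins, which hold the lecticans on hyaluronan. No Hapln4 UMI was counted in neurons of the E19 library. Excitatory neurons then had 0.806 CPM at P4 (12 UMIs), 1.06 at P8 (14 UMIs) and 13.1 at P21 (192 UMIs). Against 3 counts in the E19 library, the limit that a count of 0 allows per library, the P21 level was at least 50.5-fold higher, and it was 12.4-fold that of P8 (7.20 to 23.1). Inhibitory neurons had 0.313 CPM at P4 (2 UMIs), 0.451 at P8 (5 UMIs) and 10.4 at P21 (117 UMIs). Their P21 level was at least 20.6-fold higher than at E19. In astrocytes the counts were 2, 0, 1 and 2 UMIs from E19 to P21. Oligodendrocyte precursor cells had 20.03 CPM at P21 (7.35 to 43.6), from 6 UMIs in 64 nuclei, an interval that held both neuron levels. Hapln1 was at 0.434, 0.806, 1.52 and 6.16 CPM in excitatory neurons, from 5, 12, 20 and 90 UMIs. The P21 level was 14.2-fold that of E19 (5.87 to 44.8). Inhibitory neurons had 2.18, 1.72, 0.812 and 9.11 CPM of Hapln1, and the P21 level was 4.18-fold that of E19 (2.34 to 8.11) and 11.2-fold that of P8 (5.69 to 25.2). For both link proteins, as for Acan, P21 was the high library in both neuron classes. Astrocyte Hapln1 was at 0, 1.98, 6.45 and 9.84 CPM, from 0, 2, 8 and 16 UMIs, and the P21 level was at least 3.04-fold higher than at E19.

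Bcan encodes brevican, the lectican of the adult brain that glia release around synapses. Its levels in excitatory neurons were 11.5, 12, 9.48 and 41.0 CPM from E19 to P21, and the P21 level was 3.56-fold that of E19 (2.94 to 4.32). In inhibitory neurons it was at 15.9, 15, 14.9 and 53.0 CPM, 3.33-fold from E19 to P21 (2.67 to 4.17). The first 3 libraries lay close together in each neuron class and the P21 library stood apart. Before P21 the neuron level did not stand above that of classes not known for Bcan: at P4 it was 34.5 CPM (20.1 to 55.3) in vascular leptomeningeal cells and 43.7 (20.9 to 80.3) in 22 endothelial nuclei. At P21 it was 12 CPM (5.99 to 21.5) in vascular leptomeningeal cells and 9.57 (5.36 to 15.8) in myelinating oligodendrocytes, below both neuron classes, while the interval of 33 microglia nuclei (18.0 CPM, 2.18 to 65.1) overlapped them. With nuclei thinned to 2300 UMIs, the share of inhibitory nuclei with a Bcan UMI was 4.14% at E19 and 12.6% at P21. The same shares in excitatory nuclei were 2.62% and 6.01%.

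Ncan and Vcan encode the lecticans of the juvenile matrix, and both fell in neurons. Ncan was at 106, 87.3, 52.7 and 28.2 CPM in excitatory neurons from E19 to P21, each library below the one before, and 3.75-fold lower at P21 than at E19 (3.35 to 4.2). In inhibitory neurons it was at 117, 102, 66.7 and 26.3 CPM, 4.47-fold lower (3.90 to 5.14). At P21 the neuron levels were still above the 4.47 CPM (1.80 to 9.20) of myelinating oligodendrocytes. Vcan was at 77.2, 68.9, 27.5 and 11.1 CPM in excitatory neurons, 6.96-fold lower at P21 than at E19 (5.88 to 8.28). It was at 42.8, 30.2, 15.8 and 8.58 CPM in inhibitory neurons, 4.98-fold lower (3.93 to 6.36). At E19, 1 nucleus held 52 of the 136 Vcan UMIs of the inhibitory subtype IN1, and 1 held 61 of the 391 of the excitatory subtype EN1. The counting intervals do not cover such clustering. The intervals of the P21 neuron levels of Vcan overlapped that of myelinating oligodendrocytes (7.02 CPM, 3.50 to 12.6), so that neuron Vcan was not distinguished from the level of those cells at P21.

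Tnr encodes tenascin-R, the crosslinker of nets, and Tnc encodes tenascin-C, an adhesion-modulating protein of immature glia. Tnr was at 261, 257, 392 and 582 CPM in excitatory neurons and at 230, 262, 394 and 573 CPM in inhibitory neurons. The P21 level was 2.23-fold that of E19 in excitatory neurons (2.14 to 2.33) and 2.49-fold in inhibitory neurons (2.35 to 2.64). The rise was spread over nuclei: 51.5% of excitatory nuclei had a Tnr UMI at E19 and 97.4% at P21, and 32.0% and 65.5% did after thinning. Tnc went the other way, at 26.0, 17.3, 11.2 and 4.66 CPM in excitatory neurons (5.59-fold lower at P21, 4.28 to 7.38) and at 31.9, 18.0, 13.4 and 4.34 CPM in inhibitory neurons (7.35-fold lower, 5.35 to 10.3). These neuron levels of Tnc were not above those of other classes in the same library. At P4 the 22 endothelial nuclei had 26.2 CPM (9.61 to 57.0), and at P21 myelinating oligodendrocytes had 3.83 (1.40 to 8.33). Astrocyte Tnc fell across the same libraries, and its part in the neuron counts was not tested.

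Has2 and Has3 encode enzymes that spin hyaluronan through the cell membrane. In neurons both were sparse: Has2 was at 1.82, 1.88, 2.43 and 0.548 CPM in excitatory neurons, with 8 UMIs at P21, and at 2.35, 0.470, 1.26 and 0 CPM in inhibitory neurons. Has3 was at 4.34, 3.56, 1.36 and 1.92 CPM in excitatory neurons and at 5.54, 4.07, 3.97 and 1.95 CPM in inhibitory neurons. The P21 level of Has3 was 2.26-fold lower than that of E19 in excitatory neurons (1.40 to 3.73) and 2.84-fold lower in inhibitory neurons (1.61 to 5.12). Neurons held 94.3% of the Has3 UMIs at P21, from 50 UMIs.

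A member was counted as changed between 2 libraries at a log2 ratio of 1 or more in size, after adding 5 CPM to both levels, among genes at 20 CPM or more in the higher library. In excitatory neurons 5 of the 10 members passed that minimum, and 2 of them rose from E19 to P21 (Bcan and Tnr, background 5.35% of 7650 genes) and 3 fell (Ncan, Vcan and Tnc, background 10.7%). In inhibitory neurons 5 passed, 2 rose (Bcan and Tnr, background 5.83% of 7807 genes) and 3 fell (Ncan, Vcan and Tnc, background 11.3%). Acan, Hapln1, Hapln4, Has2 and Has3 were under the minimum in both neuron classes. The median log2 ratio of the members that passed was -1.68 in excitatory neurons, where that of all genes was -0.06, and -1.81 in inhibitory neurons, where it was -0.04. Averaged with equal weight over subtypes, Tnr in excitatory neurons was at a log2 ratio of 0.82 and no longer counted. With 20 CPM added, Bcan in excitatory neurons was at 0.95 and, like Tnc, no longer counted. With median-of-ratios size factors the median of all genes moved by -0.11 in excitatory neurons, -0.12 in inhibitory neurons and -0.28 in astrocytes, and no count of members changed.

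**Figure D2:**
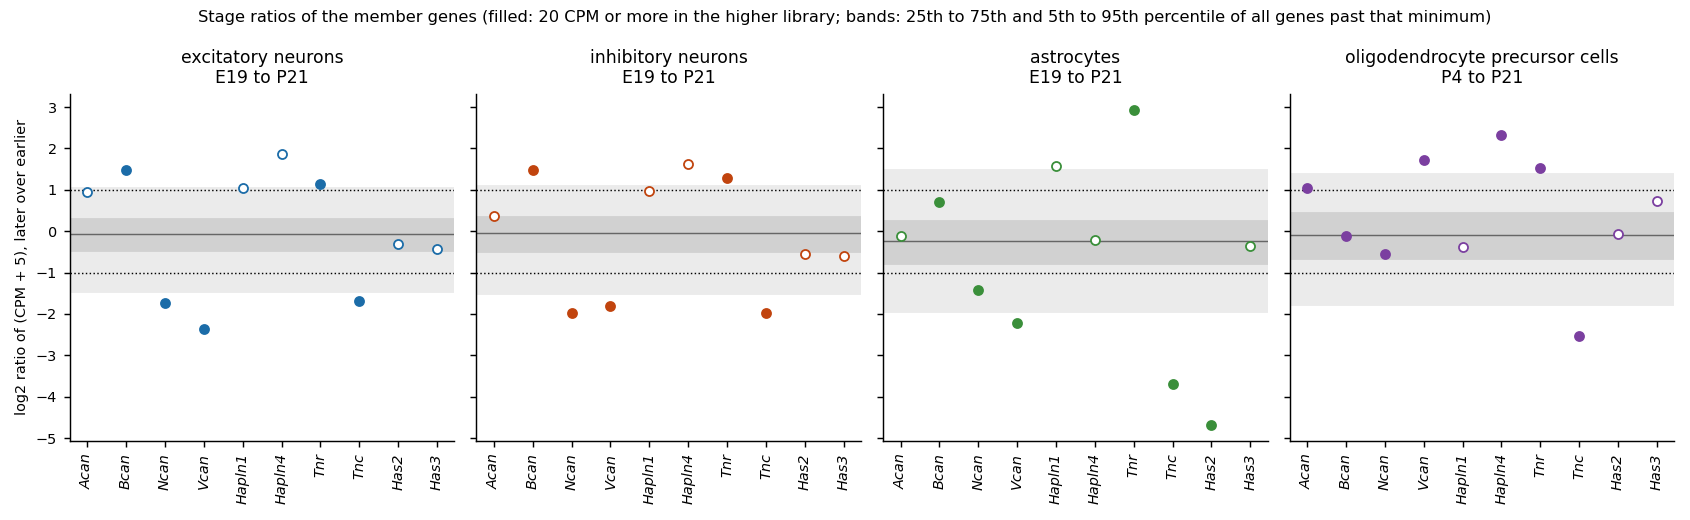
Log2 ratio of each gene, later over earlier library with 5 CPM added, in 4 cell groups; filled points passed 20 CPM in the higher library, dotted lines mark ratios of 1 and -1, and bands show the 25th to 75th and 5th to 95th percentile of all genes past that minimum. Vcan is at -2.35 in excitatory neurons and -2.21 in astrocytes and at 1.72 in oligodendrocyte precursor cells.

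Astrocytes, the main source of Bcan and Tnc, showed falls in most of the members they express. Tnc was at 2727, 1980, 1760 and 206 CPM from E19 to P21, 13.2-fold lower at P21 than at E19 (11.8 to 14.9) and 8.54-fold lower than at P8 (7.61 to 9.61). The first 3 libraries were high and the P21 library was low. Has2 was at 123, 62.4, 8.06 and 0 CPM, from 114, 63, 10 and 0 UMIs, and was at least 66.7-fold lower at P21 than at E19. Its order over stages was strict, and most of the fall came before P21. Vcan was at 172, 169, 193 and 33.2 CPM (5.17-fold lower at P21 than at E19, 3.77 to 7.18), and Ncan at 513, 481, 398 and 189 CPM (2.72-fold lower, 2.35 to 3.15). Bcan was at 569, 705, 855 and 939 CPM, 1.65-fold higher at P21 (1.49 to 1.82), which was under the fold used for a count. Of 6 members that passed the minimum, 1 rose (Tnr, background 8.6% of 8577 genes) and 4 fell (Ncan, Vcan, Tnc and Has2, background 18.2%). Their median log2 ratio was -1.81 against -0.24 for all genes. With P4 in place of E19, Tnr was at 0.95 and no member was counted as higher (background 6.01% of 8483 genes). Within these libraries the summed level of 6 astrocyte markers rose from 2212 to 6245 CPM and that of 5 oligodendrocyte markers from 39.9 to 760 CPM, and their part in the results was not tested.

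The astrocytes were of a protoplasmic and a fibrous subtype, and the fall of Tnc from E19 to P21 was larger in the protoplasmic one. Protoplasmic astrocytes, with 155 nuclei at E19 and 232 at P21, had 3246, 2431, 1784 and 162 CPM of Tnc, 20.01-fold lower at P21 than at E19 (17.5 to 23.0). They had 148, 79.1, 9.80 and 0 CPM of Has2. Fibrous astrocytes had 5, 1, 0 and 0 UMIs of Has2 (26.2 CPM at E19, 4 of the 5 UMIs from 1 nucleus), so the size of its fall could not be compared between the subtypes. Fibrous astrocytes, with 41, 48, 45 and 55 nuclei, had 724, 412, 1648 and 476 CPM of Tnc, highest at P8. At P21 their Tnc was 2.94-fold that of protoplasmic astrocytes (2.31 to 3.71), whereas at E19 it was 4.48-fold lower (3.77 to 5.36). The sign of that difference thus turned between libraries, and its mean log2 ratio over 4 libraries was -0.82 ± 1.89 (SD), with an exact two-sided sign-flip permutation p of 0.375 over 4 libraries.

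Tnr separated the astrocyte subtypes in the later libraries. It was at 15.7 (3 UMIs), 182, 1507 and 1544 CPM in fibrous astrocytes, from E19 to P21, and at 43.5, 158, 143 and 123 CPM in protoplasmic astrocytes. The fibrous level was 10.5-fold the protoplasmic one at P8 (8.64 to 12.9) and 12.6-fold at P21 (10.4 to 15.2). Fibrous nuclei with a Tnr UMI numbered 36 of 45 at P8 and 49 of 55 at P21. Pdgfra, the receptor that marks oligodendrocyte precursors, was at 22.7 CPM at P8 and 8.82 at P21 in fibrous astrocytes, against 761 in precursor cells in both libraries. The fibrous subtype also changed in its markers: 6 astrocyte markers summed to 1564, 1081, 4695 and 5274 CPM over the 4 stages. The 4 epithelial markers, which include the ciliated-cell factor Foxj1, summed to 21, 146, 18.2 and 35.3 CPM. The part of this change in the Tnr values was not tested. Bcan in fibrous astrocytes was at 199, 97.5, 499 and 534 CPM, also higher at P8 and P21 but, unlike Tnr, lower at P4 than at E19. It was below the protoplasmic level in every library, which was 665, 880, 932 and 1004 CPM. Vcan in fibrous astrocytes was at 168, 79.8, 427 and 83.8 CPM. Over the 4 libraries no member of 6 that passed was 2-fold or more apart in every library (0 higher in fibrous astrocytes, background 2.49%; 0 lower, background 0.892%).

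**Figure D3:**
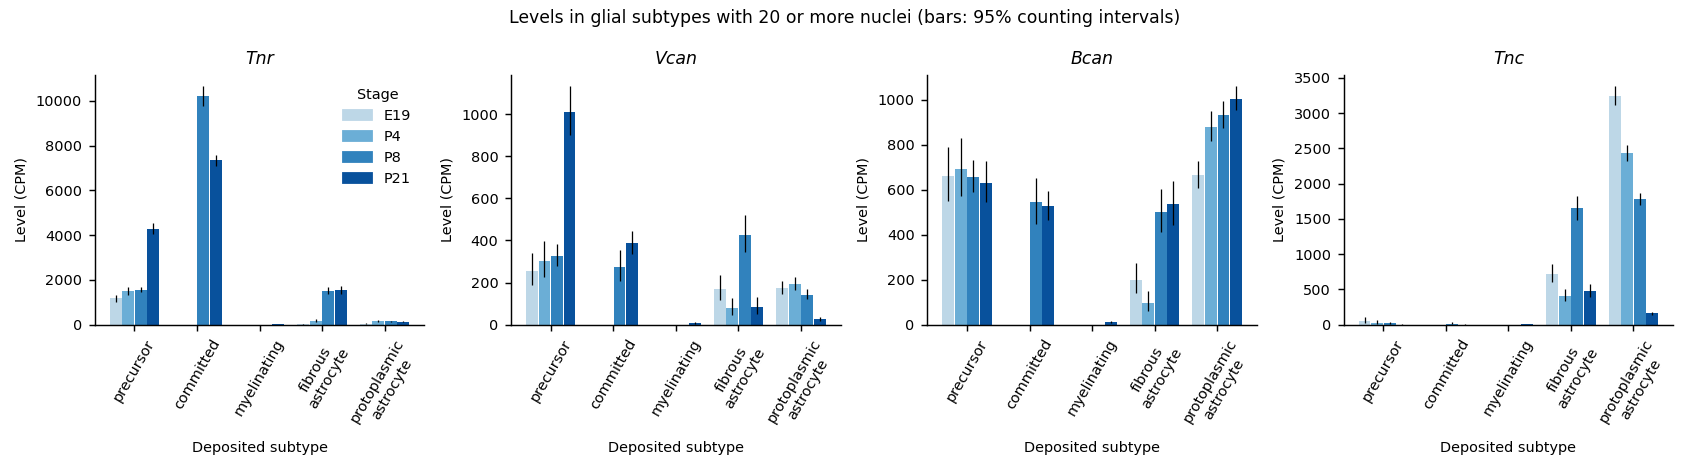
Level (CPM, bars from 0) of Tnr, Vcan, Bcan and Tnc in oligodendrocyte precursor, committed and myelinating cells and in both astrocyte subtypes, coloured by stage, for profiles of 20 or more nuclei, with 95% exact Poisson intervals. Tnr is highest in committed oligodendrocytes, at 10202 CPM at P8 and 7347 CPM at P21, and is 32.5 CPM in myelinating cells.

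Oligodendrocyte precursor cells are dividing glia that carry the proteoglycan Cspg4 and produce myelinating cells. Their Vcan was at 257, 303, 328 and 1012 CPM from E19 to P21, from 46, 42, 109 and 64 nuclei. The P21 level was 3.34-fold that of P4 (2.47 to 4.58) and 3.09-fold that of P8 (2.55 to 3.75). Tnr was at 1170, 1492, 1551 and 4294 CPM, 2.88-fold from P4 to P21 (2.51 to 3.31). For both genes 3 libraries lay close together and the P21 library was high. Bcan did not follow: it was at 661, 689, 658 and 631 CPM, and the P21 level was 0.915-fold that of P4 (0.723 to 1.16). Ncan was at 163, 178, 119 and 120 CPM. Acan had 0, 2, 6 and 9 UMIs, and Hapln4 had 0, 0, 3 and 6. Their P21 levels were 30.1 CPM (13.7 to 57.0) and 20.03 CPM (7.35 to 43.6).

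Of 7 members that passed the minimum in precursor cells from P4 to P21, 4 rose (Acan, Vcan, Hapln4 and Tnr, background 9.53% of 8387 genes) and 1 fell (Tnc, from 4 UMIs to 0, background 15.4%). The median log2 ratio was 1.05 against -0.08 for all genes, but that median is the value of Acan itself, from 2 UMIs at P4 and 9 at P21. Acan and Hapln4 passed the minimum through the P21 library alone, at 11.9 and 0 CPM at P4. The median and the count of rises therefore rest in part on sparse genes. Acan, Hapln4 and Tnc rest on 11, 6 and 4 UMIs in all: the interval of the Acan fold, 2.53, ran from 0.523 to 24.0, and it was no longer counted with nuclei thinned to 2300 UMIs. Without the nucleus with the most UMIs of the gene, Hapln4 and Tnc were not counted either. In simulated counts of this comparison with 7856 genes, 79.5% of genes changed 3-fold were recovered and 11.6% of unchanged genes were counted, so a few UMIs suffice for a call here. The summed level of 5 oligodendrocyte markers in precursor cells went from 101 to 1119 CPM between P4 and P21, and its part in these values was not tested.

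Committed oligodendrocytes, the step after the precursor, had the highest Tnr levels among subtypes with 20 or more nuclei. Their Tnr was at 10202 CPM at P8 (33 nuclei) and 7347 CPM at P21 (55 nuclei), 6.58-fold the precursor level at P8 (6.06 to 7.14) and 1.71-fold at P21 (1.60 to 1.83). In 187 myelinating oligodendrocytes at P21 it was at 32.5 CPM (24.2 to 42.8). Vcan was at 1012 CPM in precursors, 387 in committed cells and 7.02 in myelinating cells at P21, and Bcan was at 631, 527 and 9.57 CPM. Myelinating cells thus had the lowest Vcan and Bcan of the lineage at P21, while Tnr peaked in the middle step. For Bcan the precursor and committed levels were close. At P8 the Vcan intervals of precursors (328 CPM, 280 to 381) and committed cells (276 CPM, 210 to 357) overlapped. Committed cells were lower than precursors in both libraries for 2 of 5 members that passed (Acan and Ncan, background 9.81% of 7887 genes) and higher for 0 (background 4.83%). Acan passed the minimum through the precursor cells alone (6 UMIs at P8 and 9 at P21). In committed cells it had 0 UMIs at P8, which allows up to 14.3 CPM against 11.7 CPM in precursors, and 2 UMIs at P21, so that the P8 difference was not detectable at this depth. Tnr missed the count of higher members because the P21 log2 ratio was under 1, and the exact permutation p over 2 libraries cannot go below 0.50.

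Within the P21 precursor cells, Tnr moved with Gpr17, a receptor of precursors that are about to differentiate. This split was chosen after the values were seen. The 28 nuclei with 0 Gpr17 UMIs had 3061 CPM of Tnr (2753 to 3395), the 26 nuclei with 1 or 2 had 3649 (3323 to 3998), and the 10 nuclei with 3 or more had 8371 (7627 to 9167). The same sets at P8 had Tnr at 1348 (1216 to 1491), 1608 (1439 to 1792) and 3257 CPM (2609 to 4018). The last of these held 4 nuclei. A count of 0 at this depth does not show that Gpr17 was absent, and nuclei of 1 library are not replicates. The part of nuclei about to differentiate in the P21 level of Tnr was not tested. At P21 Vcan did not differ in that way, at 961, 1100 and 918 CPM, with overlapping intervals. At P8 it was at 270 (213 to 338), 396 (314 to 492) and 412 CPM (206 to 737), higher in the sets with Gpr17 UMIs but also with overlapping intervals. The precursor markers were lower at P21 in the nuclei with 3 or more: Pdgfra was at 791, 918 and 342 CPM and Cspg4 at 587, 530 and 252 CPM. Bcan was at 689, 689 and 378 CPM there, and the 10 nuclei held 6 of the 9 Acan UMIs (108 CPM, 39.6 to 235). In the P8 sets Pdgfra was at 836, 694 and 487 CPM and Bcan at 761, 543 and 449 CPM, while Cspg4 had no such order, at 356, 225 and 300 CPM.

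Classes were compared within each library, with the exact two-sided sign-flip permutation test over 4 libraries, whose smallest p is 0.13, so none can pass 0.05. Astrocytes were 2-fold or more above neurons in every library for 4 of 6 members that passed (Bcan, Ncan, Vcan and Tnc, background 9.55% of 8523 genes) and lower for 0 (background 9.57%). The mean log2 ratio was 5.04 ± 0.624 (SD, n = 4 libraries) for Bcan, 2.43 ± 0.222 for Ncan, 1.76 ± 0.742 for Vcan and 6.00 ± 1.03 for Tnc, each higher in astrocytes in 4 of 4 libraries with an exact permutation p of 0.13. With 20 CPM added, Vcan was no longer above 2-fold in every library. The Bcan level of astrocytes was 43.7-fold, 54.8-fold, 71.6-fold and 20.3-fold that of neurons, in stage order. Tnr was lower in astrocytes in 4 of 4 libraries, with a mean of -1.02 ± 1.09 (exact permutation p = 0.13), but its ratio at P8 was close to 1 (0.980-fold, 0.893 to 1.07). Precursor cells were above astrocytes in every library for Tnr (background 4.7% of 8505 genes), by 3.41 ± 1.16, and below them for Tnc (background 5.87%), by -5.75 ± 0.383, of 6 members that passed. With subtypes weighted alike, no member was higher in precursors in every library, and without the P21 library Ncan joined Tnc as lower.

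Inhibitory and excitatory neurons differed little. Of 4 members that passed, 0 were higher and 0 lower in inhibitory neurons by 2-fold in every library (background 0.562% of 7292 genes each way). Vcan was lower in inhibitory neurons in 4 of 4 libraries, by a mean log2 ratio of -0.69 ± 0.343 (SD, n = 4), and Bcan was higher in 4 of 4, by 0.34 ± 0.0891, both with an exact permutation p of 0.13. Acan was under the minimum. Its P21 level was 2.93-fold higher in excitatory than in inhibitory neurons (1.85 to 4.81).

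Among the neuron subtypes with 20 or more nuclei at P21, 11 excitatory (EN) and 12 inhibitory (IN), Acan was highest in EN10 (13 CPM, 5.22 to 26.7), EN9 (11.8, 5.66 to 21.7) and EN4 (9.28, 4.79 to 16.2). It had 0 UMIs in IN4, IN7, IN9 and IN11. The median was 6.96 CPM over excitatory subtypes and 1.98 over inhibitory ones, and the intervals of neighbouring subtypes in this order overlapped. Hapln4 ranged from 4.90 to 26.0 CPM in excitatory subtypes, highest in EN9 (16.3 to 39.3), and from 3.01 in IN3 to 18.1 in IN8. The order for Hapln1 was another one, with the highest levels in IN12 (33.3 CPM, 8 UMIs), IN11 (26.4, 12 UMIs) and IN7 (22.2, 19 UMIs). Of the 12 UMIs in IN11, 6 came from 1 nucleus. IN7 and IN11 had no Acan UMI, and a count of 0 allows up to 3.51 CPM of Acan in IN7 and 6.60 in IN11 (3 counts in that subtype and library), the latter close to the excitatory median.

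Bcan was spread more widely over subtypes at P21. It was highest in IN10 (115 CPM, 85.8 to 151), IN7 (108, 86.8 to 132) and EN8 (84.3, 69.5 to 101), and lowest in EN12 (6.53, 2.82 to 12.9) and IN3 (8.53, 4.97 to 13.7). Those at the top and at the bottom did not overlap, and 69.4% of IN10 nuclei had a Bcan UMI against 9.52% of IN3 nuclei. In IN10 the levels were 14.8, 15.7, 13.1 and 115 CPM from E19 to P21, so the difference between subtypes was one of the P21 library. Tnr was highest in IN10 at P21 (1118 CPM), where it had been 187, 428 and 770 CPM before, and in EN12 (717, 763, 757 and 1020 CPM). EN12 was thus high in Tnr at every stage and low in Bcan at P21. Vcan was highest among excitatory subtypes in EN8 at every stage, at 157, 154, 88.4 and 35.1 CPM. IN4 was highest in Vcan among inhibitory subtypes at P21, at 66.2, 44.3, 25.2 and 25.6 CPM, and also in Tnc, at 86.3, 44.3, 37.8 and 15.9 CPM. Ncan varied little, from 20.1 to 35.9 CPM over excitatory and from 15.2 to 35.0 CPM over inhibitory subtypes at P21. By the mean over libraries Has2 in neurons was highest in EN6, at 9.91, 15.1, 21.7 and 3.83 CPM. Has3 was at 16.6, 15.8, 11.9 and 2.01 CPM in IN3. In EN7, which had 20 or more nuclei at E19 and P4 only, Has3 was at 19.3 and 7.21 CPM.

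**Figure D4:**
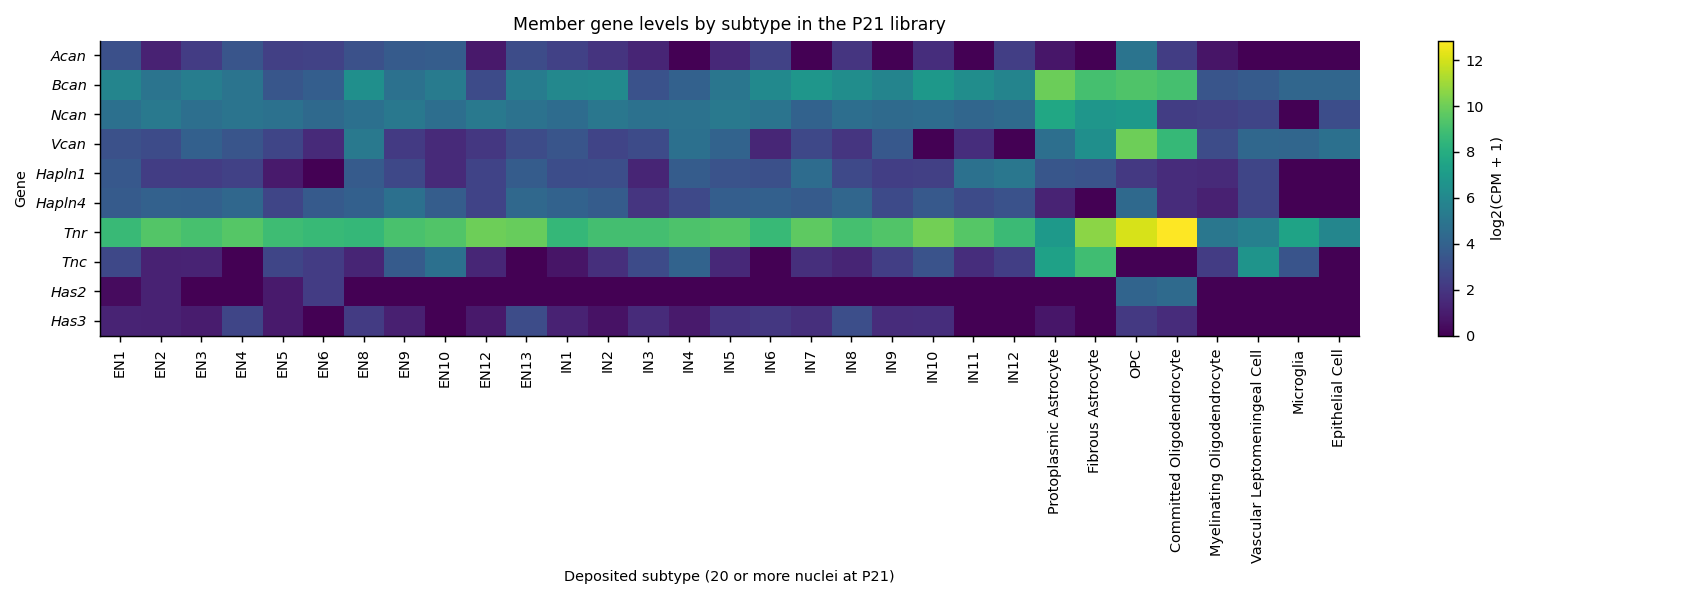
Level of each gene, as log2(CPM + 1), in the deposited subtypes with 20 or more nuclei in the P21 library; columns are subtypes, rows are genes and brighter squares are higher levels. Acan is brightest in precursor cells and in excitatory subtypes such as EN10, Bcan is bright in IN10 and IN7 and dark in EN12 and IN3, and Has2 is dark in all but a few columns.

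Acan and the link proteins were found in the same nuclei more often than in the rest, as a description of 1422 neuron nuclei at P21. Hapln4 had a UMI in 42 of 83 nuclei with an Acan UMI (50.6%, exact Clopper-Pearson interval 39.4 to 61.8) and in 16.6% of 1339 nuclei without one (14.6 to 18.7). Median depth differed, at 26008 and 16085 UMIs. Among 699 nuclei of 15000 to 30000 UMIs the shares were 52.9% (38.5 to 67.1) and 19.9% (16.9 to 23.2), at median depths of 22731 and 19614 UMIs. For Hapln1 in the same depth range they were 25.5% (14.3 to 39.6) and 7.87% (5.92 to 10.2). Pvalb, the calcium buffer parvalbumin of many net-bearing neurons, had a UMI in 25.5% (14.3 to 39.6) and 11% (8.66 to 13.6). The intervals of each pair did not overlap, and nuclei of 1 library are not replicates.

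Bcan and Tnc were higher per UMI in astrocytes than in neurons in every library, so their neuron levels were set beside those of astrocyte markers in the same nuclei. At P21 neurons still held 1198 Bcan UMIs, against 1526 in astrocytes. The Bcan level of neurons was 2.29% (1.95 to 2.68), 1.83%, 1.40% and 4.93% (4.56 to 5.32) of the astrocyte level, from E19 to P21. For 5 of 6 astrocyte markers the same share was lowest at P21: Aqp4 went from 4.29% at E19 to 1.19%, Gja1 from 6.55% to 1.05%, Slc1a2 from 19.8% to 1.44%, Slc1a3 from 2.05% to 0.667% and Aldh1l1 from 1.84% to 0.790%. Gfap, lowest at P8, went from 7.06% (1.19 to 48.2) to 3.68% (3.16 to 4.28). The P21 share of Bcan was above those of all 6 markers, and it alone with Tnc (1.03% to 2.19%) was higher at P21 than at E19 among the genes plotted. These shares also move with the astrocyte level. Tnc fell from 28.0 to 4.52 CPM in neurons and from 2727 to 206 CPM in astrocytes, so its higher share was no rise in neurons. In astrocytes all markers but Aldh1l1 rose from E19 to P21, as Slc1a2 from 595 to 3377 CPM and Aqp4 from 159 to 728 CPM. Ncan went from 21.4% to 14.5% and Vcan from 38.1% to 30.1%. Summed over the list, the 6 markers stood at 150 CPM at E19 and 76.3 at P21 in excitatory neurons, all with UMIs, and at 178 and 90.2 CPM in inhibitory neurons. The lower sum came mostly from Slc1a2, at 118 CPM in all neurons at E19 and 48.6 at P21. Slc1a3, Gja1 and Aldh1l1 were also lower at P21, whereas Gfap went from 0.229 to 10.5 CPM and Aqp4 from 6.80 to 8.68 CPM in all neurons. Markers of oligodendrocytes went from 58.8 to 268 CPM in excitatory neurons. Bcan in that lineage at P21 was at 631 CPM in precursor, 527 in committed and 9.57 in myelinating cells. The part of free RNA of other cells in the neuron levels of Bcan and Tnc was not tested.

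**Figure D5:**
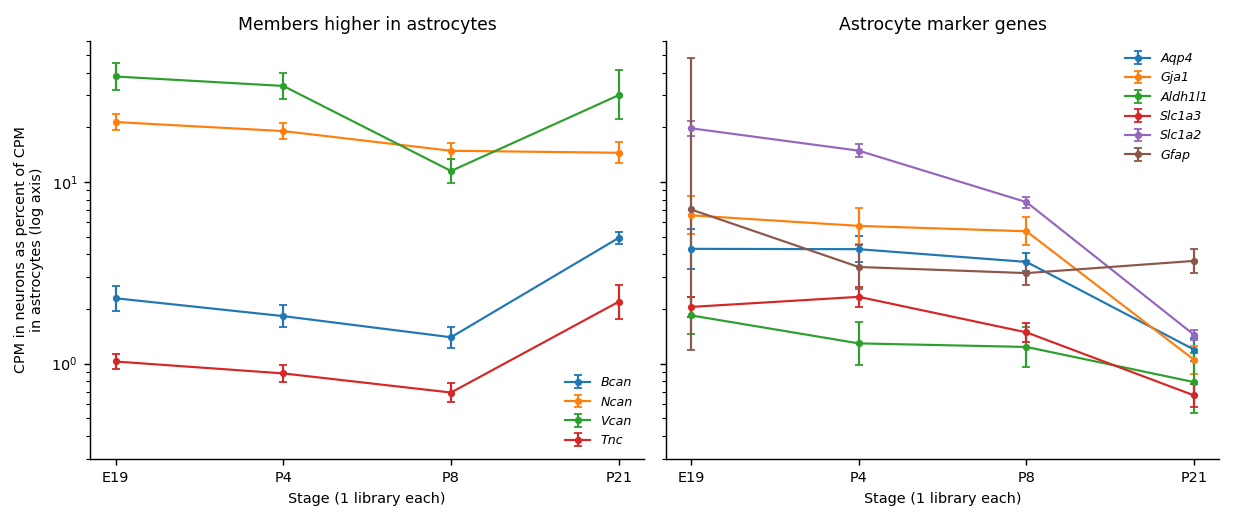
Neuron level as percent of the astrocyte level in the same library (log axis) for Bcan, Ncan, Vcan and Tnc, left, and for 6 astrocyte markers, right, with 95% exact intervals for counting error. Bcan goes from 2.29% at E19 to 4.93% at P21, and Aqp4 goes from 4.29% to 1.19%.

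Other classes gave smaller or thinner values. Vascular leptomeningeal cells, the fibroblasts of the meninges and vessels, had Tnc at 150, 114, 125 and 100 CPM, and the P21 level was 0.668-fold that of E19 (0.445 to 1.03). At P21, 40 of the 92 Tnc UMIs came from 1 nucleus, and 14 of 139 nuclei had a Tnc UMI (10.1%), against 17 of 36 at E19 (47.2%). Without the nucleus with the most Tnc UMIs of each library the levels were 118, 96.5, 112 and 57.6 CPM, an alternative chosen after seeing the data. Their Vcan was at 155, 144, 72.7 and 18.5 CPM, 8.34-fold lower at P21 (4.53 to 15.9). At P21 these cells held 16.6% of the Tnc UMIs of the library (10.1% without that nucleus), against 0.887% at E19 (0.674%). Dividing cells, with 36 nuclei at E19, 25 at P4 and 35 at P8, had 3060, 939 and 1263 CPM of Tnc, 773, 700 and 564 CPM of Bcan, and 184, 777 and 1020 CPM of Tnr.

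The wider list of 69 measured genes (other matrix genes, chondroitin sulfate enzymes, proteases, receptors and markers of net-bearing neurons) was counted by the same rule. In excitatory neurons 6 of 30 that passed rose (background 5.35%) and 5 fell (background 10.7%). The largest rises were those of Ust, a chondroitin sulfotransferase (19.5 to 53.3 CPM), and of the fast potassium channel genes Kcnc1 (77.9 to 173) and Kcnc2 (455 to 971). Largest among the falls were those of Sema3a, a guidance cue that binds nets (29.7 to 2.88 CPM), the fibrillin gene Fbn2 (95.2 to 19.4) and the proteoglycan gene Cspg5 (229 to 84.0). In inhibitory neurons 2 of 30 rose (background 5.83%), Kcnc1 (82.5 to 196) and Cemip, which takes part in hyaluronan breakdown (9.06 to 27.2). Kcnc2 was next, at a log2 ratio of 0.94, under the fold. Another 4 fell there (background 11.3%), with Rtn4r (22.5 to 2.65), the phosphatase gene Ptprz1 (190 to 58.7) and Fbn2 (67.3 to 21) as the largest.

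In astrocytes 3 of 32 genes of that list rose (background 8.6%) and 10 fell (background 18.2%). The rises were in Kcns3 (0 to 28.9 CPM) and in the lectican-cleaving protease genes Adamts9 (58.3 to 341) and Adamts20 (19.4 to 67.7). The largest falls were in Chst3, a chondroitin 6-sulfotransferase (74.5 to 7.38), the fibulin gene Fbln2 (35.6 to 2.46) and B3galt6, an enzyme of the linker that carries chondroitin sulfate (23.8 to 1.85). In precursor cells 7 of 35 rose (background 9.53%) and 3 fell (background 15.4%) from P4 to P21. Itga9, an integrin that binds tenascin-C, went from 244 to 972 CPM. Each of the other 5 named by rank, Cemip, Xylt2, Otx2, Nefm and Sema3a, rested on 11 UMIs or fewer. The background shares are those of all genes in the same comparison. Rises and falls in inhibitory neurons and rises in astrocytes were near that share. Falls in precursor cells were below it.

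The pattern of each gene over 124 profiles (1 subtype in 1 library, 20 or more nuclei) was set beside that of 12424 genes by Pearson correlation of log2(CPM + 5), as a description, since profiles of 1 library share its depth and its free RNA. Bcan was most like Asrgl1 (r = 0.87), Kcnj10 (0.82) and Rfx4 (0.81), and Tnc most like Aldh1l1 (0.86), Lrig1 (0.81) and Cbx5 (0.80). Ncan was most like Cspg5 (0.85), Fabp7 (0.82) and Bex2 (0.79). For Tnr the nearest was Slc1a1 (0.77), then Cntn1 and Opcml (both 0.68). Vcan had Afap1l2, Tcf7l2 and Traf4 (each 0.67), and Has2 had Fam212b (0.74), Rgcc (0.72) and Ptprz1 (0.70). Hapln4 was nearest to BC030499 and Gm13629 (both 0.78) and Sgpp2 (0.77), and Hapln1 to Coro6 (0.60), Gm13629 and Gm13832 (both 0.59). No gene passed 0.52 for Acan or 0.45 for Has3, whose counts were sparse. Among the members themselves the highest value was 0.66, for Ncan with Tnc, then 0.59 for Hapln1 with Hapln4, and the lowest was -0.48, for Ncan with Hapln4.

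Lectican and link protein genes lie in pairs on the genome (GENCODE M21, GRCm38). Hapln1 (chr13:89539796-89611652, plus strand) is 43659 bases from Vcan (chr13:89655312-89742509, minus strand), Hapln4 (chr8:70083457-70090862, plus strand) is 2222 bases from Ncan (chr8:70093085-70120873, minus strand), Bcan (chr3:87987531-88000230, minus strand) is 21519 bases from Hapln2, and Acan (chr7:79053483-79115099, plus strand) is 2 bases from Hapln3. In neurons the level of Hapln4 was higher at P21 than at E19 and that of Ncan lower, and that of Hapln1 was higher and that of Vcan lower. For the other pairs, Bcan went from 13.03 to 46.2 CPM and Hapln2 from 0.229 to 0.888 CPM (4 and 23 UMIs). Acan went from 0.743 to 4.44 CPM, while Hapln3 was at 0.457, 2.30, 2.84 and 0.926 CPM over the 4 stages. Hapln2, the link protein of myelinated axons, had 265 UMIs in myelinating oligodendrocytes at P21 (169 CPM, 149 to 191) and 0 in precursors and committed cells of that library, where Bcan was high. Hapln3 was at 19.4, 8.91, 5.64 and 0.615 CPM in astrocytes, where Acan had 1 to 3 UMIs per library. The ends of Acan and Hapln3 face each other, and Has2, Tnc, Has3, Hapln1, Vcan and Tnr overlap a gene on the opposite strand and Ncan and Tnr one on the same strand. The sources used here do not give whether reads were counted by strand, and UMIs of these genes could be shared with their neighbours.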

How the data were processed

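Single-nucleus libraries (10x Genomics, chemistry v3, target of 2000 nuclei) were made per the labels' protocols from superior colliculus pooled from several C57BL/6J animals, 1 library per stage. The authors deposited raw UMI counts of 31053 genes in 9724 nuclei, made with Cell Ranger 3.0.2 on a pre-mRNA reference of mm10, per the submitters' processing notes. They also deposited class and subtype names and, as percent of UMIs, mitochondrial and ribosomal protein content, which was not used. How nuclei were filtered and named and whether doublets were removed is not given in the sources used here. Another 5 numeric columns (a cluster number and map coordinates) were not used. UMI totals equalled the deposited ones in all 9724 nuclei.

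UMIs were summed per library and class or subtype and scaled to 1000000 (CPM), with exact Poisson 95% intervals, exact conditional intervals for folds and exact Clopper-Pearson intervals for shares of nuclei. A ratio was called at a log2 value of 1 or more after adding 5 CPM, among genes at 20 CPM or more. A fold against a count of 0 used 3 counts per library as the limit. Profiles under 20 nuclei were left out of comparisons. Shares were also given after thinning nuclei to 2300 UMIs, and no nucleus fell below that depth. With 1 library per stage no test between stages was made, and differences between animals and between stages cannot be told apart. Classes were compared by an exact two-sided sign-flip permutation test over libraries. In counts simulated with 3-fold changes, 100% were recovered in both neuron classes, 97% in astrocytes and 79.5% in precursor cells, where 11.6% of unchanged genes were also counted. These were Poisson draws from the pooled profile of each cell group. They hold no spread between nuclei or animals, so they show the effect of counting error only.

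All 10 members were named, with the 3 genes of the wider list that moved most each way in each comparison and the 3 genes most like each member. The members and lists were chosen with earlier results of these data known. Alternatives were another pseudocount, minimum, scaling, weighting and thinning, and leaving out libraries or nuclei. Positions are from GENCODE M21. Software was Python 3.11.15, numpy 2.4.6, scipy 1.17.1, pandas 2.3.3 and matplotlib 3.10.9.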

Additional observations from a re-analysis of the deposited data

Results flagged for a closer look

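Vcan differed in direction between cell groups from P4 to P21. Its log2 ratio, with 5 CPM added, was -2.199 in excitatory neurons, -1.375 in inhibitory neurons and -2.19 in astrocytes, and it was 1.722 in oligodendrocyte precursor cells. The difference between the groups was not tested, as each stage is 1 library.

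Tnr was high in profiles of too few nuclei for the comparisons. It was at 8348 CPM in 12 committed oligodendrocytes at P4, at 8899 CPM in 1 nucleus labelled myelinating at P8, and at 2729 CPM in 10 dividing cells at P21. In 12 endothelial nuclei at P21 it was at 2522 CPM, where 183 of 186 Tnr UMIs came from 1 nucleus of 31131 UMIs that also held 27 Mbp and 5 Gpr17 UMIs, against a median of 3559.5 UMIs.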

How the results depend on the processing

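No paired analysis was possible because each stage is 1 library and the labels give no replicate numbers shared between groups. This concerns the stages, and classes were compared within each library. In excitatory neurons the count of members that rose went from 2 to 1 with 20 CPM added, with a minimum of 100 CPM or with subtypes weighted alike, and to 4 with no minimum, where Hapln1 and Hapln4 joined. With a minimum of 100 CPM, 1 fell there, 1 rose and 1 fell in inhibitory neurons, and 2 rose and 0 fell in precursor cells, since fewer genes were tested. In astrocytes 2 rose with no minimum and 0 from P4 to P21. With subtypes weighted alike 0 members were higher in precursor cells than in astrocytes in every library. At P8 Tnr was at 1507 CPM in 45 fibrous and 143 CPM in 188 protoplasmic astrocyte nuclei, against 1551 CPM in precursor cells. Equal weights give the fibrous nuclei more weight than their number does, and the part of this in the count was not tested. Leaving out 1 library at a time gave 1 to 2 members lower in precursor cells than in astrocytes. Another 145 recomputed counts were within 1.5 times of the reported one. Of the values for single genes, 78 moved by more than their counting interval or spread, 756 did not, and none reversed. The P4 to P21 comparison and the runs without the deepest nucleus and without the vascular leptomeningeal nucleus with the most Tnc UMIs were chosen after seeing the data. With 42 to 109 precursor nuclei per library, members at a few UMIs could not be resolved at this depth.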
